A study of Mus musculus with 22 samples.

Results

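The exons described here are frame-shifting cassette exons of intermediate inclusion in mouse embryonic stem (ES) cells: skipped-exon events whose exon was at least 61 and under 250 nucleotides long, had a length not divisible by 3, and was included at a level of 0.1 to 0.9 in both untransfected wild-type (WT) and untransfected Dnmt triple-knockout (TKO) cells, with at least 20 reads in each that told inclusion from skipping. Of 10873 events in the series, 734 met this rule. The length limits left 8179 events, the frame 4594, the read minimum 3331 and the level 734. The 734 events stood for 681 distinct exons and, where a single gene could be assigned (708 events), for 570 genes. The inclusion levels of TKO and WT chose the exons, so these levels, and every difference that involves either library, are given as a description with no test.

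A cassette exon is spliced into some transcripts of a gene and left out of others. When its length is not a multiple of 3, the 2 forms read the sequence after it in different frames, and one of them usually meets a premature stop codon. Such transcripts are known substrates of nonsense-mediated decay, the pathway that degrades messages with early stops, and genes for SR and hnRNP splicing factors are known to use exons of this kind to limit their own expression. Where such an exon lies outside the coding sequence, its length does not touch the reading frame. The position of each exon relative to the coding sequence was not analysed here.

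RNA was sequenced from 7 groups of ES cells grown without feeder cells, 2 replicates each, and the authors pooled the replicates of a group before they estimated splicing, so each group is 1 library and no replicate error can be given. TKO HP1abg-KD cells lacked the DNA methyltransferases Dnmt1, Dnmt3a and Dnmt3b and received siRNA against the heterochromatin proteins HP1alpha, HP1beta and HP1gamma at 80, 80 and 120 nM. WT HP1abg-KD cells, of the R1 line with intact Dnmt genes, received the same 3 siRNAs at 60 nM each. WT HP1a-KD, WT HP1b-KD and WT HP1g-KD cells received a single siRNA at 90 nM, and all knock-downs were taken 48 h after transfection. TKO and WT cells were not transfected. The TKO cells came from a published line, so a difference between TKO and WT is a difference between lines as well as between genotypes. The knock-downs were sequenced as read pairs of 101 bases on a HiSeq, and TKO and WT as single reads of 50 bases on the older Genome Analyzer II, so knock-down and platform cannot be told apart in any comparison between them.

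The inclusion level of an exon is the authors' estimate of the fraction of transcripts that contain it (0 to 1), deposited with the bounds of an interval whose confidence level is not stated. It comes with counts of reads that fit the including form alone, called inclusion reads here, and reads that fit the skipping form alone, called skipping reads. Reads that told the forms apart numbered 1357326 in TKO HP1abg-KD, 852513 in WT HP1abg-KD, 1311048 to 1742065 in the single knock-downs, 3534280 in TKO and 3491698 in WT. Per member exon the median was 61 to 84.5 such reads in the knock-down libraries that passed the read minimum, 103 in TKO and 93 in WT. Event reads of the ES cell markers with an event, 5 of 11 genes, summed to 2118 to 3300 RPM (scaled to all event reads of a library) over the 7 libraries. TKO HP1abg-KD was the lowest, at 2118 against 3242 in WT HP1abg-KD, and the others lay between 2880 and 3300. None of the 8 fibroblast or 4 trophoblast markers had an event, 1 of 5 endoderm markers reached at most 17.7 and 2 of 4 neural markers at most 30.8. Of the targeted genes, Cbx5 (HP1alpha) had 43.0 RPM in WT HP1a-KD against 113 in WT, and Cbx1 (HP1beta) had 507 in WT HP1b-KD against 615 in WT, but 1522 and 1625 in WT HP1a-KD and WT HP1g-KD. Cbx1 was also targeted in TKO HP1abg-KD, yet had 1003 RPM there against 659 in TKO, and 551 in WT HP1abg-KD against 615 in WT. Cbx3 (HP1gamma) had 32.2 in WT HP1g-KD against 457 in WT, and 35.1 in TKO HP1abg-KD and 36.1 in WT HP1abg-KD, where it was also targeted. Where it was not targeted, it also had only 49.6 in WT HP1a-KD and 52.2 in WT HP1b-KD. Dnmt3b had 79.6 RPM in TKO HP1abg-KD against 229 in WT HP1abg-KD, and 88.1 in TKO against 562 in WT.

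The sequences of 2 member exons show what a frame-shifting exon can do. They lie inside promoter windows of neighbouring genes in the RefSeq table (build GRCm38.p6), the only source of exon sequence used here. The exon of Zfp974, a zinc finger gene, is 127 nucleotides long (chr7:27926284-27926410, minus strand). It is open in 1 reading frame and holds 2 stop codons in each of the other 2, so whether it can be read through depends on the frame in which it is entered. It is printed with 20 flanking intron bases on each side, the exon in capitals; the intron bases next to it are ag before and gt after.
Zfp974: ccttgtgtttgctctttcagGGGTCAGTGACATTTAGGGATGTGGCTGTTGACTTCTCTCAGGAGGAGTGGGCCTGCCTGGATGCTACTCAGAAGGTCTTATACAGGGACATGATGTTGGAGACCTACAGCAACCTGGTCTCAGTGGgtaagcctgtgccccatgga
The exon of Unk, which encodes an RNA-binding zinc finger protein, is 244 nucleotides long (chr11:116038540-116038783, plus strand) and holds 3, 3 and 5 stop codons in its 3 frames, so it is closed in every frame. Its last 10 bases, in capitals, and the first 20 bases of the next intron are shown for the splice donor.
Unk: ATGCCTGAAGgtgaggtctcttcttctcct

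The 2 exons also differed in the reads behind their levels. The Unk exon had a level of 0.12 (30 inclusion and 73 skipping reads) in TKO HP1abg-KD, 0.05 (8 and 48) in WT HP1abg-KD, 0.04 to 0.07 in the single knock-downs, 0.31 (80 and 98) in TKO and 0.19 (39 and 93) in WT. Skipping reads outnumbered inclusion reads in every library. The Zfp974 exon had a level of 0.76 in TKO and 0.62 in WT, yet no read in either joined the exons on its 2 sides: all 270 distinguishing reads in TKO and all 144 in WT were inclusion reads. The event was not listed in any knock-down library.

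By length the 734 events were spread over the whole window, with a median of 116 nucleotides and quartiles of 91 and 155. A remainder of 1 after division by 3 was left by 373 and a remainder of 2 by 361. The flanking introns had medians of 1968 nucleotides upstream and 1685 downstream. The upstream exon held an annotated gene start in 158 events (21.5%), against 102 (13.3%) of 765 frame-preserving exons chosen by the same limits of length, level and reads, and 15.8% of the 7695 events with enough reads in TKO and WT. In such an event the cassette exon is the next one after a known first exon. Most genes had a single member exon, 75 had several, and 11 had 3 each: 4930503L19Rik, Aar2, Atp11a, Bcas3, Cep55, Gtpbp10, Kctd17, Lyar, Ptk2, Thrap3 and Zfp346. Exons of 1 gene share their transcripts and are not independent observations.

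At the edges of the rule the choice was arbitrary. An exon of Tpm3, at 0.10 in WT, was a member and one of Tgif1, at 0.09 in WT, was not. At the upper limit Srpk1, with 0.90 in TKO, was a member, and the nearest exons outside had 0.91 in one of the libraries. Rnf170 entered with 20 reads in WT and Abl1 stayed out with 19. The shortest member had 61 nucleotides (Zfp961) and the longest 248 (Lrch3), and the nearest frame-shifting exons outside had 59 (Hmgcs1) and 250 (Ggcx).

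The label of intermediate inclusion held for only part of the exons when the reads were set beside the levels. Skipping reads were present in both TKO and WT for 430 of 734 events (58.6%), in one of them for 106 (14.4%) and in neither for 198 (27.0%). Among the frame-preserving exons the last class held 177 of 765 (23.1%), and among all 7695 events 41.7%. The 7695 events were not limited by level, and 3841 of them in TKO and 3677 in WT had levels above 0.9. No member lacked inclusion reads in TKO or WT. In an event of this last class all other reads fitted both forms or neither.

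The deepest exons of this class were well read. The 118-nucleotide exon of Phc1, a Polycomb protein, had levels of 0.98 to 0.99 in the 5 knock-down libraries, with no skipping read beside 268 to 577 inclusion reads. It had a level of 0.70 in TKO, with 3224 inclusion and 0 skipping reads, and of 0.74 in WT, with 1864 and 0. Eftud2, a GTPase of the U5 snRNP, stood at 0.96 to 0.99 in the knock-downs with no skipping read, against 0.60 in TKO (2676 inclusion and 0 skipping reads) and 0.76 in WT (2117 and 0). Atp5j, a subunit of ATP synthase, stood at 0.99 to 1.00 in the knock-downs, against 0.85 in TKO and 0.84 in WT. Jarid2, a partner of Polycomb repressive complex 2, stood at 0.94 to 0.99 in the knock-downs with 1 to 7 skipping reads, against 0.75 in TKO (1320 and 0) and 0.76 in WT (1336 and 0). In these 4 genes every knock-down library lay above both untransfected ones.

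Not every exon without skipping reads behaved so. Maz, a zinc finger transcription factor, had levels of 0.24 to 0.26 in the knock-downs with 40 to 100 skipping reads, against 0.51 in TKO (517 inclusion and 0 skipping reads) and 0.86 in WT (972 and 0). Despite these low levels, inclusion reads of Maz outnumbered skipping reads in every knock-down library. Kpna2, an importin, had 0 inclusion and 1 to 8 skipping reads in the knock-downs (level 0.00), against 1627 inclusion reads in TKO (0.78) and 1349 in WT (0.77) with no skipping read. The sign of the gap in level between libraries thus differed from exon to exon.

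The same split by skipping reads was described in all 7 libraries. Of the exons with no skipping read in TKO or WT, 100 had at least 20 distinguishing reads in TKO HP1abg-KD and 84 in WT HP1abg-KD; the medians were 0.88 in TKO HP1abg-KD, 0.89 in WT HP1abg-KD, 0.86 to 0.87 in the single knock-downs, 0.725 in TKO and 0.715 in WT. Levels above 0.9 were reached by 40 of the 100 and by 34 of the 84. Of the exons with skipping reads in both TKO and WT, the medians were 0.295 in TKO HP1abg-KD, 0.32 in WT HP1abg-KD, 0.28 to 0.33 in the single knock-downs, 0.46 in TKO and 0.42 in WT. Only 7 of 248 such exons passed 0.9 in TKO HP1abg-KD and 6 of 228 in WT HP1abg-KD, while 47 and 40 were below 0.1.

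**Figure D1:**
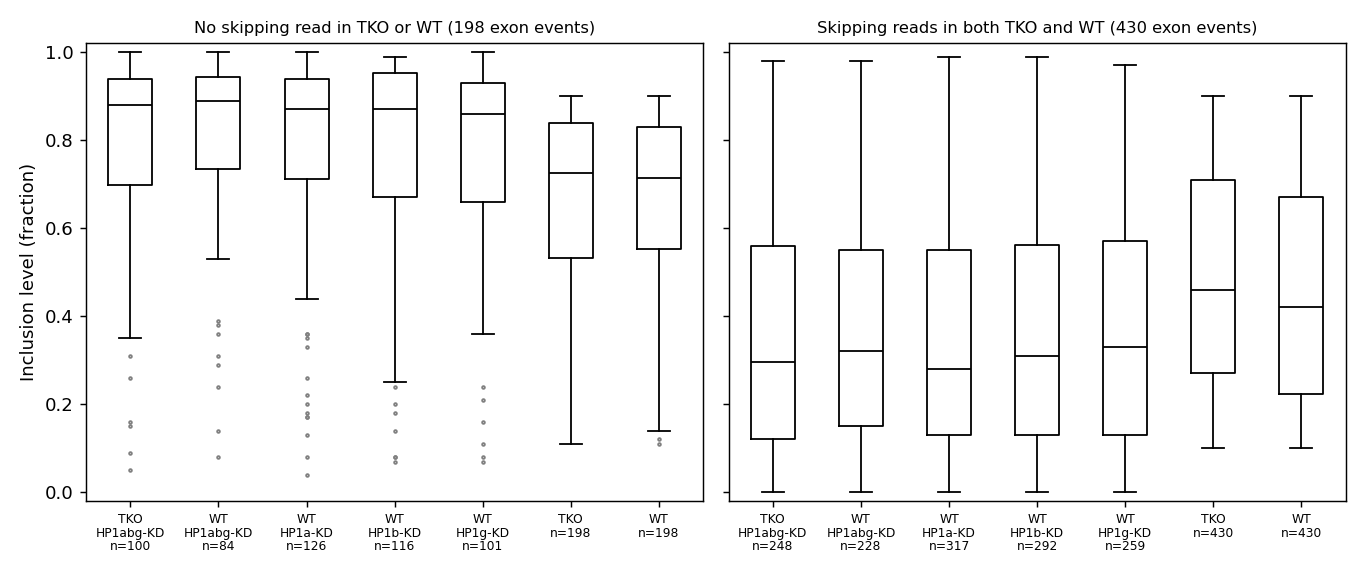
Inclusion level (fraction, 0 to 1) of member exons in each pooled library, for exons with no skipping read in TKO or WT (left) and with skipping reads in both (right). Boxes span the quartiles with the median as a line, whiskers and points show the remaining exons and n is the number of exons with at least 20 distinguishing reads; in the left panel the knock-down medians of 0.86 to 0.89 lie above those of TKO (0.725) and WT (0.715), and in the right panel those of 0.28 to 0.33 lie below TKO (0.46) and WT (0.42).

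The same exon could also have several levels. Of the 681 exons 48 were in several events that differ in the flanking exons, 101 events in all, and within a library their levels differed by a median of 0.09 in TKO and 0.11 in WT. The largest gaps were 0.54 in TKO (Ptk2, 0.28 and 0.82) and 0.49 in WT (Tpm3, 0.10 and 0.59). Thrap3, a component of transcription and splicing complexes, shows the pattern: its 88-nucleotide exon had levels of 0.44 in TKO and 0.51 in WT in an event with 154 and 159 skipping reads, and of 0.35 in TKO and 0.62 in WT in an event with none. In 36 of the 48 exons all events gave TKO minus WT the same sign. A level of such an exon belongs to a pair of neighbours, not to the exon alone.

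TKO against WT gives the levels of cells without and with the DNA methyltransferases. Members were counted as apart when their levels differed by at least 0.1 and the deposited intervals did not overlap. Of 734 members 108 (14.7%) were apart, 73 higher in TKO and 35 lower, against 6.84% of all 7695 events, 4.61% higher and 2.22% lower. Since the rule chose the members from these levels and leaves out exons near 0 and 1, the count says nothing about frame-shifting exons as such; of the frame-preserving exons 13.7% were apart. The median difference was 0.02, 402 members being higher and 302 lower in TKO. Members with skipping reads in both libraries were higher in 56 and lower in 15 cases, and those with none in either in 9 and 7. Of the 108, 37 had a library in which 1 of the 2 read classes was empty. The share apart was 12.9% (48 of 373) with a remainder of 1 and 16.6% (60 of 361) with a remainder of 2, a difference that was not tested.

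**Figure D2:**
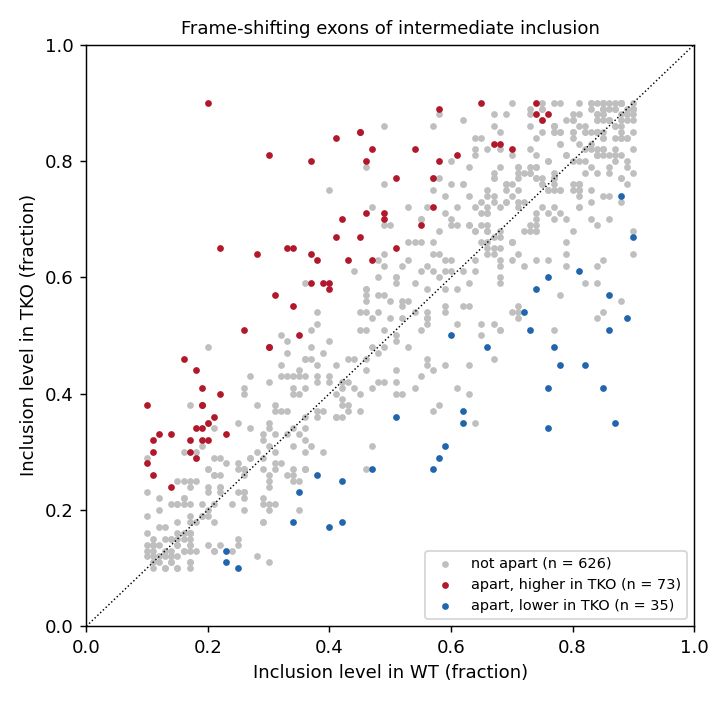
Inclusion level in TKO (y axis, fraction) against WT (x axis, fraction) for the 734 exon events, 1 point each, with the line of equality dotted. Red points (73) are apart and higher in TKO, blue points (35) apart and lower, and grey points (626) not apart; all points lie between 0.1 and 0.9 because the rule requires it.

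Members higher in TKO included exons with reads of both forms in both libraries. Clcn3, a chloride and proton exchanger of endosomes, had a 76-nucleotide exon at 0.85 in TKO (208 inclusion and 14 skipping reads) and 0.45 in WT (94 and 52). Zfp219, a zinc finger transcription factor, stood at 0.80 in TKO (297 and 20) and 0.46 in WT (271 and 87). Senp8, the protease that removes NEDD8, stood at 0.65 in TKO (83 and 30) and 0.33 in WT (20 and 19). In all 3 the intervals did not overlap, but those of Senp8 lay closest, at 0.55 to 0.74 in TKO and 0.21 to 0.47 in WT. In the knock-down libraries, however, TKO and WT cells lay close: Clcn3 had 0.19 in TKO HP1abg-KD and 0.21 in WT HP1abg-KD, Zfp219 had 0.47 and 0.52, and Senp8 had 0.09 and 0.15, in the same order.

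Other large increases rested on few or one-sided reads. Tbl1xr1, a subunit of the NCoR corepressor complex, had the largest one, 0.90 in TKO (23 inclusion and 0 skipping reads) against 0.20 in WT (12 and 26), and at most 7 distinguishing reads in any knock-down. Traf3, an adaptor of TNF receptors, had 0.81 in TKO (36 and 4) against 0.30 in WT (8 and 12) and was not listed in the knock-downs. Nfat5, the transcription factor of the osmotic stress response, had 0.84 in TKO (38 and 0) against 0.41 in WT (19 and 10). Cdk10, a cyclin-dependent kinase, had 0.85 in TKO (59 and 0) against 0.45 in WT (25 and 0), so that no skipping read stood behind either level. Nit1 (0.82 against 0.47), Crybg2 (0.89 against 0.58) and Prelid2 (0.65 against 0.34) were further increases among the events with most reads of their genes. Tmem168 (0.80 against 0.37), an event of Rpap1 (0.64 against 0.28) and an exon in no assigned gene (0.65 against 0.22) also moved by more than Prelid2, but were not such events.

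Among the members lower in TKO, Gjc1, which encodes the gap junction protein connexin 45, had a 232-nucleotide exon at 0.53 in TKO (139 inclusion and 66 skipping reads) and 0.89 in WT (84 and 0). Lzic had 0.45 in TKO (100 and 5) and 0.82 in WT (194 and 1), although skipping reads were few in both. Pcyt2, an enzyme of phosphatidylethanolamine synthesis, had 0.37 in TKO (66 and 39) and 0.62 in WT (118 and 31). Alkbh1, a DNA and RNA demethylase, had 0.29 in TKO (49 and 36) and 0.58 in WT (79 and 3). The skipping reads were more numerous in TKO in these 4 genes. Phkb (0.41 against 0.85), Hps5 (0.41 against 0.76), Maz (0.51 against 0.86), 9430015G10Rik (0.45 against 0.78), Pramel12 (0.27 against 0.57) and Ocel1 (0.57 against 0.86) were further decreases among the events with most reads of their genes. Events with fewer reads were lower too in Zmym4 (0.34 against 0.76), Atp2a3 (0.48 against 0.77) and the second event of Phkb (0.35 against 0.87). In 5 members that were apart the share of inclusion reads moved against the deposited level.

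TKO HP1abg-KD against WT HP1abg-KD compares the same genotypes under the triple knock-down, in libraries that the rule did not use and that share a platform. Of the 734 members 344 had at least 20 distinguishing reads in both. By Fisher's exact test on the 2 read classes, with Benjamini-Hochberg adjustment over all 4473 events tested and a difference of level of at least 0.1, 3 members (0.872%) were called, 1 higher and 2 lower in TKO HP1abg-KD, against 0.469% of all events, 0.246% higher and 0.224% lower. Of the 394 frame-preserving exons read in this pair 8 (2.03%) were called, 4 higher and 4 lower. At an unadjusted p under 0.05 there were 25 of 344 members, 52 of 394 frame-preserving exons and 237 of all 4473 events. The test compares 2 pooled libraries and not the conditions, since no spread between replicates is known. With a minimum of 50 reads in each library 1 member was called, because Lmo7 and Tjap1 had 47 and 44 reads in one library. The siRNA doses also differed between the 2 libraries, and so did some markers of ES cells. Sall4 had 507 RPM in TKO HP1abg-KD and 983 in WT HP1abg-KD, Klf4 256 and 516, and L1td1 1135 and 1540. Zfp42 went the other way, with 221 and 202. The endoderm marker Sox17 (17.7 RPM) and the neural marker Pax6 (24.3) were listed in TKO HP1abg-KD and in no other knock-down. Both were listed in TKO as well, at 14.6 and 20.9, and Pax6 in WT at 5.32. The neural marker Map2 was listed in no knock-down, and had 9.84 in TKO and 17.8 in WT. The part of the doses and of these markers in the calls was not tested.

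Lmo7, an adaptor of cell junctions and actin, had a 109-nucleotide exon that fell to 0.16 in TKO HP1abg-KD (18 inclusion and 29 skipping reads, interval 0.10 to 0.24), against 0.76 in WT HP1abg-KD (53 and 3, 0.57 to 0.92; adjusted p = 1.24e-07, Fisher's exact test). The other libraries lay near the WT knock-down: 0.69 in WT HP1a-KD, 0.56 in WT HP1b-KD, 0.65 in WT HP1g-KD, 0.73 in TKO and 0.72 in WT. TKO HP1abg-KD was thus the single low library of the 7. Tjap1, a protein of tight junctions and the Golgi, had a 130-nucleotide exon that rose to 0.68 in TKO HP1abg-KD (68 and 5), against 0.21 in WT HP1abg-KD (26 and 18; adjusted p = 0.0038, Fisher's exact test). Here the library that stood apart was WT HP1abg-KD, because the levels were 0.51 in WT HP1a-KD, 0.52 in WT HP1b-KD, 0.71 in WT HP1g-KD, 0.58 in TKO and 0.61 in WT.

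Hnrnpa2b1, an abundant hnRNP protein that binds RNA and regulates splicing, had a 136-nucleotide exon that fell to 0.10 in TKO HP1abg-KD (425 inclusion and 1441 skipping reads), against 0.21 in WT HP1abg-KD (191 and 271; adjusted p = 4.6e-12, Fisher's exact test). The single knock-downs stood at 0.18 to 0.20, TKO at 0.53 (1649 and 870) and WT at 0.52 (1249 and 625). The untransfected lines therefore lay within 0.01 of each other, and the 5 knock-down libraries lay below both. Hnrnph1 and Eif4a2 also passed the adjusted p, with differences under 0.1: Hnrnph1, an hnRNP protein that binds G-rich RNA, stood at 0.84 in TKO HP1abg-KD (1066 and 42) and 0.93 in WT HP1abg-KD (963 and 9), and Eif4a2, an RNA helicase of translation initiation, at 0.05 (95 and 506) and 0.10 (88 and 193), in the same order.

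By intervals alone 11 of the 344 were apart in this pair, 1 higher and 10 lower, against 1.59% of all events, 0.604% higher and 0.984% lower. Beside Tjap1, Lmo7 and Hnrnpa2b1 they included exons of Ankrd11, Atp11a, Esrp1, Gpx4, Hnrnph3, Kctd17 and Ktn1, whose adjusted p-values ran from 0.22 to 1 by Fisher's exact test. Hnrnph3, an hnRNP protein, had 0.69 in TKO HP1abg-KD and 0.85 in WT HP1abg-KD, and 0.66 in TKO and 0.70 in WT. Esrp1, an epithelial splicing regulator, had 0.47 and 0.82 under the knock-down in TKO and WT cells, and 0.85 and 0.84 without it. Of the 14 members in genes for hnRNP proteins and other splicing regulators read in this pair, these 3 were apart and 11 were not. All 3 were lower, as were 10 of the 11 members apart. Of the 394 frame-preserving exons read in this pair 14 were apart, 8 higher and 6 lower.

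The TKO and WT libraries share no reads with the knock-down pair, so the 2 pairs can be set side by side. Of the 73 members higher in TKO, 44 were read in the knock-down pair, and 25 of them were higher in TKO HP1abg-KD, 15 lower and 4 equal. Of the 35 lower in TKO, 20 were read, and 11 were lower in TKO HP1abg-KD, 8 higher and 1 equal. Of all events higher in TKO, 228 were read in the pair, 146 of them higher, 70 lower and 12 equal, and of those lower in TKO, 98 were read, 55 of them lower. Among the frame-preserving exons 37 of 49 kept the higher side, 6 of them apart in the pair, and 11 of 21 the lower side, 2 of them apart. For the members higher and lower in TKO, the median differences in the pair were 0.01 and -0.01, against 0.19 and -0.19 between TKO and WT. Across the 344 members Pearson's r between the 2 differences was 0.11, against 0.12 over 4344 events in all; exons are not independent replicates. Kctd17 and Atp11a were apart in both pairs, both lower: Kctd17 had 0.08 in TKO HP1abg-KD, 0.26 in WT HP1abg-KD, 0.27 in TKO and 0.47 in WT, and Atp11a had 0.08, 0.28, 0.31 and 0.59 in the same libraries.

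**Figure D3:**
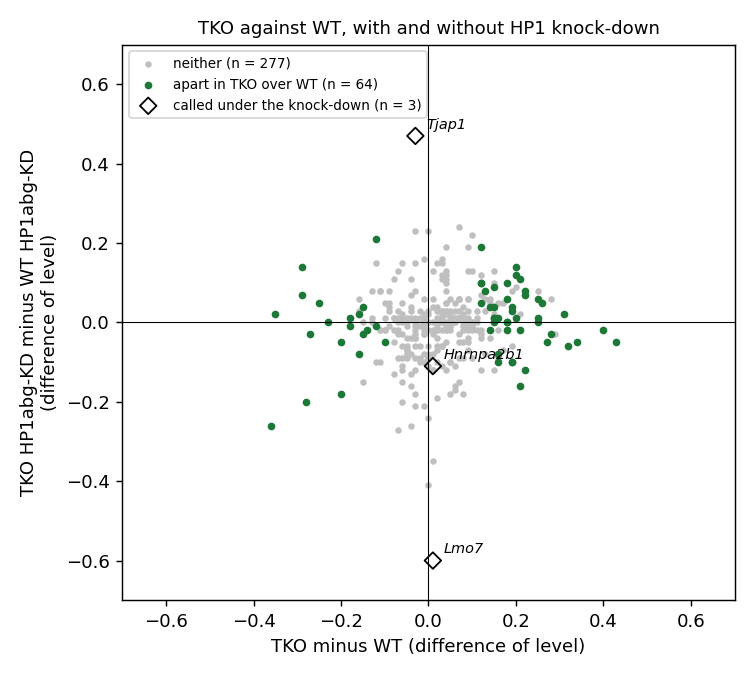
Difference of inclusion level between TKO HP1abg-KD and WT HP1abg-KD (y axis) against that between TKO and WT (x axis) for the 344 member events read in all 4 libraries. Green points (64) are apart between TKO and WT and scatter around 0 on the y axis; diamonds mark the 3 called under the knock-down, Tjap1, Hnrnpa2b1 and Lmo7, which lie within 0.03 of 0 on the x axis.

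Within WT cells the 4 knock-downs, the triple one and the single ones against HP1alpha, HP1beta and HP1gamma, can be compared on 1 platform. The 6 pairs were WT HP1abg-KD over WT HP1a-KD, over WT HP1b-KD and over WT HP1g-KD, WT HP1a-KD over WT HP1b-KD and over WT HP1g-KD, and WT HP1b-KD over WT HP1g-KD, and held 355 to 470 members each. No member was called by Fisher's exact test in any of them; among all events the shares called were 0.0214%, 0%, 0.0217%, 0.0171%, 0% and 0.019% in this order. At an unadjusted p under 0.05 there were 9, 9, 10, 13, 26 and 15 members, against 113 of 4675, 115 of 4670, 120 of 4600, 150 of 5841, 147 of 5303 and 139 of 5274 events in all. By intervals 2, 2, 3, 2, 4 and 1 members were apart, against 0.257%, 0.193%, 0.435%, 0.514%, 0.585% and 0.303% of all events. Between 212 and 302 members per pair differed by less than 0.05. The absence of calls does not show that the knock-downs act alike.

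Each knock-down against the untransfected cells of its own line gave much larger gaps. Of the members read in both libraries, 181 of 412 were apart in TKO HP1abg-KD over TKO, 50 higher and 131 lower, against 19.5% of all events, 2.85% higher and 16.7% lower. In WT HP1abg-KD over WT 144 of 360 were apart, 53 higher and 91 lower, against 18.8%, 3.75% higher and 15% lower. In WT HP1a-KD over WT it was 233 of 514 (74 higher and 159 lower, against 18.4% of all events, 3.72% higher and 14.7% lower). In WT HP1b-KD over WT it was 197 of 479 (63 higher and 134 lower, against 18.9%, 3.72% higher and 15.2% lower). In WT HP1g-KD over WT it was 179 of 423 (55 higher and 124 lower, against 19.3%, 3.69% higher and 15.6% lower). Of the frame-preserving exons 35.7% were apart in TKO HP1abg-KD over TKO, against 43.9% of members, and 36.3% against 40% in WT HP1abg-KD over WT. For the single knock-downs over WT, in the order above, it was 36.9%, 38.8% and 38.8%, against 45.3%, 41.1% and 42.3% of members. The rule used the untransfected side of each comparison, and the 4 WT comparisons share the WT library, so these counts are a description. The share of inclusion reads moved against the deposited level in 20 to 29 members apart per comparison, and in 83 to 123 of all events apart. Read length, pairing and sequencer changed together with the knock-down, and their part in the gaps was not tested.

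Members were next divided by their skipping reads in TKO and WT, the same libraries whose levels are subtracted, so this split is a description and no independent measure. In TKO HP1abg-KD over TKO, members with skipping reads in both untransfected libraries were higher in 12 and lower in 109 of 248, with a median difference of -0.13, while those with none in either were higher in 29 and lower in 5 of 100, with a median of 0.09. In WT HP1abg-KD over WT the numbers were 15 higher and 79 lower of 228 with skipping reads in both (median -0.09), and 29 higher and 3 lower of 84 with none (median 0.14). Over the 341 members read in all 7 libraries, all 5 knock-downs lay below both untransfected libraries in 144 (42.2%) and above both in 78 (22.9%). Over all 4313 such events these shares were 51.0% and 7.03%, and over the 391 such frame-preserving exons 34.5% and 20.7%. Of the 79 such members with no skipping read in TKO or WT, 45 lay above and 8 below; of the 216 with skipping reads in both, 19 lay above and 120 below. The level spanned a median of 0.09 over the 5 knock-downs and of 0.25 over the 7 libraries.

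The widest gaps below the untransfected cells were in Eif4a2, Ube2j2 and Qrich1. The 107-nucleotide exon of Eif4a2 had levels of 0.05 in TKO HP1abg-KD, 0.10 in WT HP1abg-KD, 0.12, 0.10 and 0.09 in WT HP1a-KD, WT HP1b-KD and WT HP1g-KD, 0.61 in TKO (3297 inclusion and 1170 skipping reads) and 0.81 in WT (4353 and 627). Ube2j2, a ubiquitin-conjugating enzyme of the endoplasmic reticulum, had 0.13 to 0.18 in the knock-downs, 0.72 in TKO and 0.66 in WT in one of the 2 events of its 163-nucleotide exon. Qrich1 had 0.03 to 0.07 in the knock-downs, 0.53 in TKO (228 and 65) and 0.56 in WT (255 and 79). In all 3 exons inclusion reads outnumbered skipping reads in TKO and WT, and skipping reads outnumbered inclusion reads in the 5 knock-downs. Gpx4, the glutathione peroxidase that protects membrane lipids, had 0.08 in TKO HP1abg-KD (26 and 8) and 0.18 to 0.30 in the WT knock-downs, against 0.68 in TKO (3355 and 148) and 0.66 in WT (3763 and 204). Unlike in the 3 exons above, inclusion reads of Gpx4 outnumbered skipping reads in every library, also in WT HP1b-KD (143 and 8, level 0.30).

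Fnbp4 (0.16 in TKO HP1abg-KD and 0.24 in WT HP1abg-KD, 0.58 in TKO and 0.74 in WT), Tmub2 (0.06 and 0.04, 0.69 and 0.50) and Mdm2, the ubiquitin ligase of p53 (0.22 and 0.49, 0.80 and 0.87), were also among the largest decreases. In the other direction Bclaf3 had 0.91 in TKO HP1abg-KD and 0.75 in WT HP1abg-KD against 0.28 in TKO and 0.25 in WT, and Arhgef25, a guanine nucleotide exchange factor, 0.88 and 0.92 against 0.36 and 0.41. Mis12, a kinetochore protein, had 0.71 and 0.89 against 0.37 and 0.32. Trub2 and Gabpb1, with 0.93 and 0.94 in WT HP1abg-KD, had 0.38 and 0.42 in WT, and 1110059E24Rik and Anapc15, both at 0.86 in TKO HP1abg-KD, had 0.17 and 0.36 in TKO. Of these 7 exons all had no skipping read in TKO, and at most 1 in WT. Dkc1, the pseudouridine synthase dyskerin, differed from these 7, with 0.62 in TKO HP1abg-KD (29 and 9) against 0.14 in TKO (17 and 92). Prelid2, the largest increase of WT HP1abg-KD over WT, had 0.95 in WT HP1abg-KD (50 and 0) and 0.34 in WT (29 and 2).

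Some deep members hardly moved. With at least 100 distinguishing reads in each of the 7 libraries, the members of smallest range included exons of Hikeshi, Thyn1/Vps26b (2 overlapping genes), Gtpbp3 and Thrap3. Hikeshi, the nuclear import carrier of Hsp70, had a 238-nucleotide exon at 0.56 in TKO HP1abg-KD, 0.55 in WT HP1abg-KD, 0.60, 0.60 and 0.58 in the single knock-downs, 0.58 in TKO and 0.56 in WT. All 7 intervals of this Hikeshi event overlapped. Gtpbp3, a mitochondrial tRNA-modifying enzyme, lay between 0.55 and 0.63. These ranges belong to 1 event, not to the exon in all its events. The second event of the Thrap3 exon ran from 0.35 in TKO to 0.98 in WT HP1a-KD. That of the Hikeshi exon had 0.76 in TKO and 0.80 in WT.

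**Figure D4:**
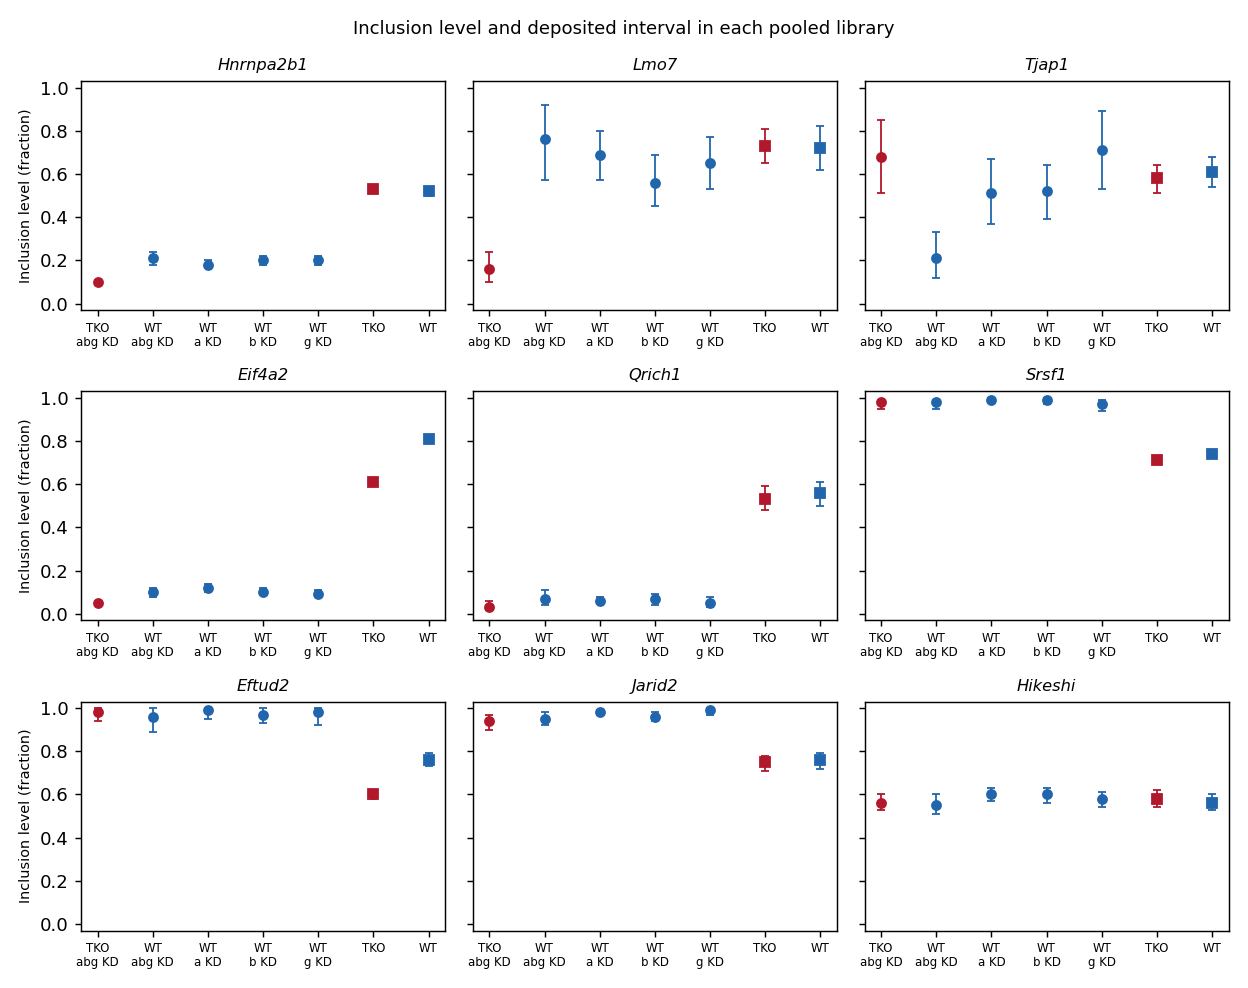
Inclusion level (fraction, 0 to 1) of 9 member exons in each pooled library, with the deposited interval as a bar; red marks TKO and blue WT cells, circles knock-downs and squares untransfected cells. Lmo7 is low in TKO HP1abg-KD (0.16) alone and Tjap1 in WT HP1abg-KD (0.21) alone. Hnrnpa2b1, Eif4a2 and Qrich1 are lower in all 5 knock-downs than in TKO and WT, and Srsf1, Eftud2 and Jarid2 are higher. The event of Hikeshi shown stays between 0.55 and 0.60.

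Members in genes of RNA processing were described by role. For the counts of these and the later gene lists, 9.95% of all members were apart and higher in TKO and 4.77% lower. Over all events the shares were 4.61% and 2.22%. The lists are short and leave out genes of the same roles. They count events of near-identical exons separately, and differences between lists were not tested. Of 36 genes for SR proteins and their kinases 8 held 10 members, of which 1 was higher and none lower in TKO; the median difference was 0.035, against 0.02 over all members. That member was the 91-nucleotide exon of Clk4, a kinase of SR proteins, at 0.70 in TKO (366 inclusion and 96 skipping reads) and 0.49 in WT (141 and 83). Its paralogue Clk1 has an exon of the same length, which stood at 0.89 in TKO (728 and 51) and 0.87 in WT (654 and 52). The 2 kinases also differed in the knock-downs, with 0.30 to 0.49 for Clk4 and 0.69 to 0.84 for Clk1. Srsf1, the founding SR protein, had the deepest member of all lists, at 0.97 to 0.99 in the knock-downs, 0.71 in TKO (5635 and 224) and 0.74 in WT (6265 and 196). Srpk1, a kinase of SR proteins, was lower in the knock-downs, with 0.42 to 0.59, against 0.90 in TKO and 0.87 in WT, and at most 5 skipping reads in any library.

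Of 67 genes for hnRNP proteins and other splicing regulators 17 held 24 members on 20 distinct exons, 6 higher and none lower in TKO, with a median difference of 0.01. They were in Rbm5 (0.82 in TKO and 0.54 in WT), Mbnl2 (0.90 and 0.65), Celf1 (0.48 and 0.30), Rbm39 (0.33 and 0.23) and Hnrnpr (0.88 and 0.76, with a second event that differs by 3 nucleotides at 0.87 and 0.75). Celf1, a CUG-binding protein, had ample reads, with 232 inclusion and 96 skipping reads in TKO and 199 and 263 in WT. Under the knock-down its levels were 0.24 in TKO HP1abg-KD and 0.26 in WT HP1abg-KD. Raly, an hnRNP protein, had 0.62 to 0.68 in the knock-downs and, just short of the limit of 0.1, 0.86 in TKO (1811 and 213) and 0.77 in WT (2180 and 445). Hnrnpd had a mostly skipped exon, at 0.02 to 0.04 in the knock-downs, 0.10 in TKO and 0.15 in WT.

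Of 76 genes of the core spliceosome and snRNPs 7 held 10 members, none higher and 3 lower in TKO, with a median difference of -0.04. Sf1, the protein that recognises the branch point, had a 205-nucleotide exon at 0.39 to 0.43 in the knock-downs, 0.48 in TKO (451 and 147) and 0.66 in WT (1159 and 320). The other 2 lower members were the events of Eftud2. Its exons share their 3′ end, differ by 3 nucleotides at their start and have no skipping read in TKO or WT. Slu7 and Aar2, splicing factors outside this list, had exons apart and higher, at 0.32 and 0.35 in TKO, against 0.20 each in WT. Of 45 genes of nonsense-mediated decay and the exon junction complex only Rnps1, which links the junction complex to decay, held members. Its 122-nucleotide exon had 0.14 in TKO HP1abg-KD (382 and 622), 0.18 in WT HP1abg-KD (212 and 258), 0.51 in TKO (670 and 254) and 0.55 in WT (547 and 173), and its 181-nucleotide exon had 0.99, 0.98, 0.76 and 0.69 in the same libraries, with at most 1 skipping read in each. The 2 exons of 1 gene thus stood on opposite sides of the untransfected levels.

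Of 134 genes of chromatin and DNA methylation 16 held 20 members on 18 exons, 4 higher and 2 lower in TKO, with a median difference of 0.035. Kdm5a, a demethylase of histone H3 lysine 4, had an 82-nucleotide exon at 0.77 in TKO (277 and 62) and 0.57 in WT (116 and 65). Atrx, a chromatin remodeller, had a 185-nucleotide exon in 2 events, at 0.36 and 0.44 in TKO and 0.21 and 0.18 in WT. The lower ones on the list were Ehmt1 and Morf4l2. Ehmt1, a histone H3 lysine 9 methyltransferase, stood at 0.67 in TKO and 0.90 in WT with at most 1 skipping read in each. Morf4l2 stood at 0.50 in TKO and 0.60 in WT. Suv39h2, another histone H3 lysine 9 methyltransferase, had 0.55 to 0.69 in the knock-downs, 0.85 in TKO and 0.80 in WT. Kmt5a, a histone H4 lysine 20 methyltransferase outside the list, had an event apart and lower. It stood at 0.23 in TKO (98 inclusion and 100 skipping reads) and 0.35 in WT (157 and 0).

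Genes that the experiment itself targeted held members too. Cbx5, which encodes HP1alpha, had exons of 100 and 104 nucleotides with a shared 3′ end; the 104-nucleotide one stood at 0.42 in TKO HP1abg-KD (29 inclusion and 6 skipping reads), 0.30 in WT HP1abg-KD (17 and 5), 0.27 in WT HP1a-KD (14 and 7), 0.28 in WT HP1b-KD (65 and 32), 0.40 in WT HP1g-KD (56 and 15), 0.24 in TKO (181 and 33) and 0.20 in WT (157 and 28). Reads were fewest where HP1alpha was targeted. Dnmt3b had a 115-nucleotide exon at 0.24 in TKO HP1abg-KD (21 and 27), 0.33 in WT HP1abg-KD (119 and 95), 0.33 to 0.38 in the single knock-downs, 0.27 in TKO (80 and 125) and 0.34 in WT (654 and 570). Dnmt3l, its catalytically inactive relative, was not targeted. It stood at 0.14 in TKO and 0.11 in WT with at most 1 skipping read in each.

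Of 121 genes of DNA repair and the cell cycle 9 held 11 members, 2 higher and none lower in TKO, Cdk10 and Mdm4, with a median difference of 0.02. Outside this list, Anapc15, of the anaphase-promoting complex, and Alkbh1 had exons apart and lower, at 0.36 and 0.29 in TKO. Their levels in WT were 0.51 and 0.58. Mdm4, an inhibitor of p53 whose known short form lacks an exon of 68 nucleotides, had a 68-nucleotide exon with fewer than 20 distinguishing reads in every knock-down, at 0.81 in TKO (694 inclusion and 87 skipping reads) and 0.61 in WT (428 and 132). Cenpa, the centromeric histone H3, had a 137-nucleotide exon at 0.21 to 0.25 in the knock-downs, 0.42 in TKO (987 inclusion and 1012 skipping reads) and 0.40 in WT (1033 and 1031). No member lay in the 35 pluripotency genes or in the 33 markers of differentiated cells and fibroblasts, of which 11 and 4 had an event.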

How the data were processed

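Splicing of 14 RNA samples was read from 7 skipped-exon summaries; the 2 bisulfite and 6 MNase samples of the series were not used. TopHat2, Bowtie2 and mm10 are named by the submitters' processing notes, with no versions in the sources used here. The authors' summaries are MISO output, per the file headers: the deposited inclusion level is a fraction, with interval bounds on the same scale, and reads are deposited as a list of counts per class. Both replicates of a group were pooled by the authors, per the labels. Every deposited event has at least 100 reads, so shallower events are missing from a library. How reads that fit both forms enter the level could not be examined.

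Events were joined by coordinates and named from the RefSeq gene table of GRCm38.p6, by the gene whose span holds the event. Of all events 10512 had a single gene, 248 had none and 113 had several, and of the members 708, 17 and 9. Overlapping, antisense and near-identical genes cannot be told apart by these reads. Whole exon sequence was found in the promoter windows (250 bases before to 50 after a start) for 3 members.

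Fisher's exact test (two-sided, SciPy 1.17.1) was run on 7 pairs of knock-down libraries, over all events with at least 20 distinguishing reads in each, with Benjamini-Hochberg adjustment. Calls needed an adjusted p up to 0.05 and a difference of at least 0.1. The test was checked on simulated counts. Reads amplified by PCR are not independent molecules, so p-values and intervals cover counting error only. The 6 pairs with an untransfected library were described without a test. Named exons, 1 event for each assigned gene, the one with most reads in TKO and WT, were the 10 largest increases and decreases apart between TKO and WT, those called between knock-downs, the 5 largest of each triple knock-down over its untransfected line, the 5 of smallest range, up to 6 of most reads per gene list and those next to the limits; other exons were named after their values were seen, and a few named by the rule are not reported here. The members, the 8 gene lists and the tests were chosen with earlier results of these data known. Alternatives changed the read minimum, the size of the difference, the use of intervals, the limits of level and the read classes required.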

Additional observations from a re-analysis of the deposited data

How the results depend on the processing

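No paired analysis was possible because each deposited summary merges both replicates, so none could be left out either. Of 85 alternative values 59 kept their direction and side of the threshold or stayed within 1.5 times the count, and none reversed. Members called between TKO HP1abg-KD and WT HP1abg-KD numbered 3, but 1 with a minimum of 50 reads, 5 with a minimum difference of 0.05 and 11 by intervals apart with no p; over the 6 pairs of WT knock-downs intervals gave 14 in place of 0. Between TKO and WT the 73 higher and 35 lower members became 39 and 21 with a difference of at least 0.2, 173 and 102 whatever the intervals, and 37 and 20 with levels limited to 0.2 to 0.8. The lower ones were 21 with the share of reads for the level and 15 with at least 1 read of each class. With levels of 0.2 to 0.8, members apart from WT were 152 for WT HP1a-KD, 125 for WT HP1b-KD, 112 for WT HP1g-KD and 56 (lower) for WT HP1abg-KD, and 83 (lower) for TKO HP1abg-KD apart from TKO. Whatever the intervals there were 310 for WT HP1b-KD, 272 for WT HP1g-KD, 91 higher for WT HP1abg-KD and 96 higher for TKO HP1abg-KD. With at least 1 read of each class, a rule added after seeing the data, the higher ones were 19 for WT HP1abg-KD over WT, against 53, and 13 for TKO HP1abg-KD over TKO, against 50; events without a skipping read cannot enter that count. Members whose TKO minus WT sign was kept in the knock-down pair, 36 of 64, became 15 of 30 with a difference of at least 0.2, 65 of 125 whatever the intervals and 20 of 38 with levels of 0.2 to 0.8. Of the 734 members 360 had at least 20 distinguishing reads in WT HP1abg-KD and 514 in WT HP1a-KD.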
